A study of Mus musculus with 40 samples.

Results

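Among mice that all carry the genotype label Mutant in a series on an alpha-CaMKII line, some had a far higher 24-h activity score than others. Dentate gyrus expression of the most active mice so labelled was compared here with that of mice of moderate hyperactivity. The extreme group held the 6 mutants whose 24-h LA, the activity score printed in each sample's description, was above 90000 (mutants 4, 5, 6, 25, 34 and 35). The moderate group held the 7 mutants with a score between 40000 and 60000 (mutants 10, 16, 17, 26, 27, 30 and 37). Together they made up 13 of the 37 mutant arrays and 13 of the 40 arrays of the series.

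Every sample was total RNA of the dentate gyrus of 1 adult C57BL/6J mouse, labelled with biotin and measured on 1 Affymetrix array. The series title calls the line alpha-CaMKII HKO, and all 37 mice outside the control group carry the genotype label Mutant. No treatment is labelled for any group. The unit of the activity score is not given, and neither is the time of day at which tissue was taken.

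The median score was 111304.29 in extreme mice (94950.6 to 128827.08) and 50378.7 in moderate mice (41603.46 to 59997). Of the mutants outside the comparison, 8 had intermediate scores of 63775.14 to 82113 and 16 had low scores of 16273.92 to 25590.06, which overlapped the range of 14301.12 to 20979.78 in the 3 wild types. The limits therefore fell in gaps: the least active extreme mouse stood at 94950.6 and the next mouse below it at 82113. The most active moderate mouse stood at 59997 with its neighbour at 63775.14, and the least active at 41603.46 with its neighbour at 25590.06. Extreme mice were 25 to 29 weeks old, moderate and intermediate mice 22 to 33 weeks, low-activity mutants 23 to 33 weeks and wild types 27 to 29 weeks. Mean age differed by -1.33 weeks (extreme minus moderate), with p = 0.467 in a 2-sided exact permutation test over all 1716 regroupings of the 13 mice.

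**Figure D1:**
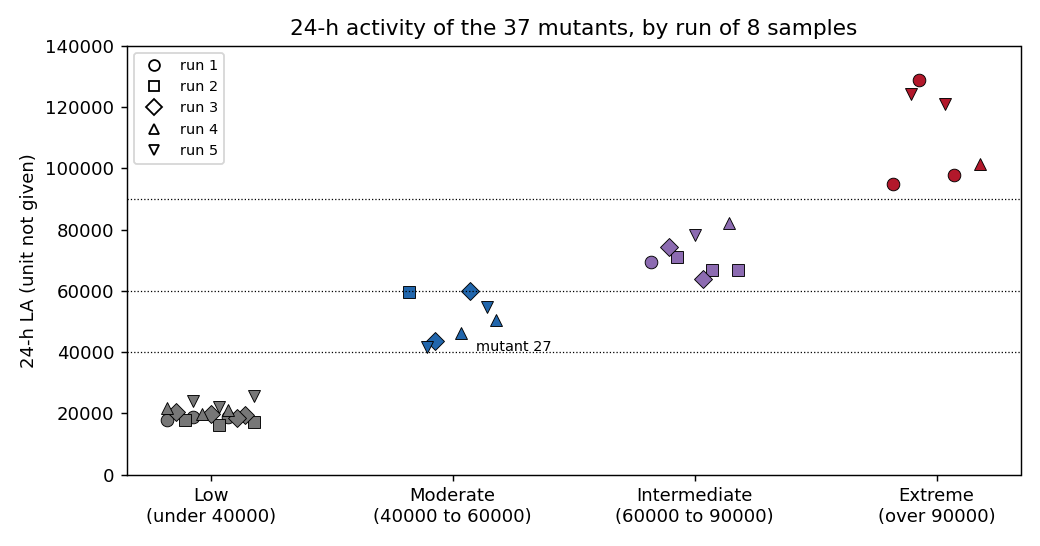
The 24-h LA score of each of the 37 mutants (y axis, linear, unit not given) by activity group (x axis), with 1 point per mouse and a symbol for each run of 8 consecutive samples; dotted lines mark 40000, 60000 and 90000. The 6 extreme mice lie between 94950.6 and 128827.08 and the 7 moderate mice between 41603.46 and 59997, and run 1 holds 3 extreme mice and no moderate mouse.

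CaMKII alpha is an abundant calcium- and calmodulin-dependent kinase of forebrain excitatory neurons that takes part in synaptic plasticity. Mice with a single working copy of its gene are known for hyperactivity that waxes and wanes over days, and for a dentate gyrus in which granule cells keep features of immaturity: low calbindin and tryptophan dioxygenase, and high dopamine D1 receptor and enkephalin. Immediate-early genes such as Fos, Arc and Egr1 report recent neuronal firing, and clock genes such as Per1, Per2 and Dbp cycle over the day. Both are classes of transcript whose level can follow the behavioural state of the animal.

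The labels name no batch, but values changed in steps along the sample order. The first principal component of the 37 mutants took up 28.7% of their variance, and runs of 8 samples in deposited order accounted for 96.0% of that component. Run 1 contained mutants 4, 5 and 6, which is 3 of the 6 extreme mice, and no moderate mouse. Runs 2 and 3 held moderate mice only (mutant 10, then mutants 16 and 17), and only runs 4 and 5 held both groups (mutant 25 with 26 and 27, and mutants 34 and 35 with 30 and 37). The RNA quality measure of the array, the log2 difference between the 3' and 5' actin probe sets, was 0.988 to 1.11 in run 1 and 1.37 to 1.70 in the other runs, so its mean was 1.22 in extreme and 1.48 in moderate mice. Group means were therefore compared in 1 limma model of all 37 mutants, with the 4 activity groups and with the run as a block. In whole tissue, fewer cells of a type and less RNA per cell cannot be told apart in any of the values below.

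No gene separated extreme from moderate hyperactivity past the threshold. Of 18194 genes, 0 (percent called, 0) passed an adjusted p of 0.05 in limma with Benjamini-Hochberg adjustment, and the smallest adjusted p was 0.277. At an unadjusted p below 0.05, 1169 genes (6.43%) were counted, 560 higher (3.08%) and 609 lower (3.35%) in extreme mice. Without the array labelled mutant 27, described next, again 0 genes passed, 1018 genes (5.6%) had an unadjusted p below 0.05 (2.9% higher and 2.69% lower), and the smallest adjusted p was 0.571.

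The width of the intervals says what sizes of difference these arrays could still hold. The median standard error of the extreme minus moderate difference was 0.0868 on the log2 scale, on which a difference of 1 is 2-fold, and the unadjusted 95% interval reached 0.177 to each side of the estimate at the median. For 18146 genes (99.7%) the whole interval lay inside -1 to 1, and for 17457 genes (95.9%) inside -0.5 to 0.5. For 9408 genes it lay inside -0.25 to 0.25. Leaving one mutant out at a time gave 0 genes in 36 of 37 fits. The exception was the fit without mutant 16, in which 1 gene passed, Vcam1, an adhesion molecule of vessel walls and astrocytes, at -0.40 with an adjusted p of 0.0497 in limma.

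The array labelled mutant 27, in the moderate group, did not look like the other mutants. Camk2a, the gene named in the study's title, read 12.19, 12.25, 12.23, 12.13, 12.16 and 12.11 (log2 RMA value) in the 6 extreme mice. It read 12.13, 12.12, 12.09, 12.31, 12.11 and 12.15 in moderate mutants 10, 16, 17, 26, 30 and 37, and 12.90 in the array labelled mutant 27. Wild types 1 and 2 read 12.79 and 12.81, while wild type 3 read 12.08, inside the mutants' range. The 6 extreme mice and the other 6 moderate mice overlapped, and mutant 27 stood above all of them beside wild types 1 and 2. Whether the probe set lies in the part of the gene that was altered is not given in the labels.

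The genes that mark the immature dentate gyrus set the array labelled mutant 27 apart in the same way. Calb1, encoding the calcium buffer calbindin of mature granule cells, was 11.60 in mutant 27 against 9.45 to 9.85 in the other moderate mice, and 11.46 and 11.59 in wild types 1 and 2. Tdo2, which encodes tryptophan dioxygenase and marks mature granule cells, was 8.39 in mutant 27 against 2.58 to 2.97 in the other moderate mice. Drd1, the dopamine D1 receptor, was 6.71 against 8.61 to 8.98, and Penk, the enkephalin precursor, was 7.10 against 9.82 to 10.29. Every one of these readings of mutant 27 fell outside the other 6 moderate mice and beyond all 6 extreme mice. Wild types 1 and 2 read 8.63 and 8.55 for Tdo2, 6.52 and 6.79 for Drd1, and 7.61 and 7.53 for Penk. Wild type 3 lay within the other mutants instead, at 9.60 for Calb1, 2.56 for Tdo2, 8.94 for Drd1 and 10.14 for Penk. Whether the labels and activity scores of mutant 27 and wild type 3 belong to these arrays was not tested. For 1176 genes (6.46%) mutant 27 was the array standing farthest from the rest of the moderate group by Dixon's criterion, against 575 genes (3.16%) for mutant 10. The label of mutant 27 was kept, and the comparison was run with and without it.

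**Figure D2:**
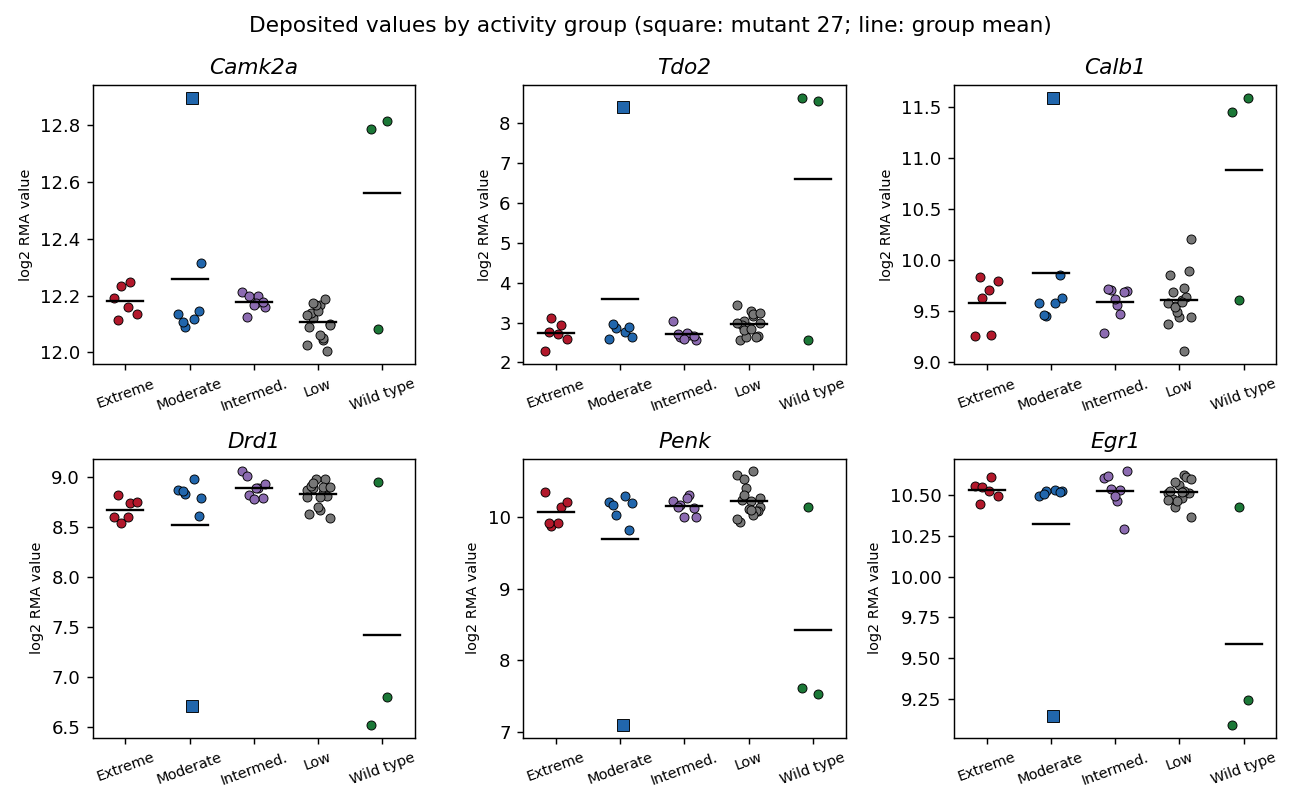
Deposited log2 RMA values (y axis, linear) of 6 genes in 40 arrays, grouped by activity (x axis); each point is 1 array, the square is the array labelled mutant 27 and the horizontal line is the group mean. Mutant 27 reads 12.90 for Camk2a and 8.39 for Tdo2, apart from the other mutants and beside wild types 1 and 2, while wild type 3 lies within the mutants.

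The sign of several differences depended on this array. The extreme minus moderate difference of Camk2a was -0.08 (SE 0.08) with all mutants and 0.02 (SE 0.04, 95% interval -0.06 to 0.11) without it. Drd1 moved from 0.14 to -0.17, Penk from 0.25 to -0.19, Calb1 from -0.11 to 0.18, and Nptx2, a pentraxin secreted at excitatory synapses, from 0.13 to -0.18. Tdo2 moved from -1.02 to -0.21 and kept its sign. None of these values passed the threshold with or without the array; the smallest adjusted p among them was 0.795 with it and 0.862 without it (limma, Benjamini-Hochberg).

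Of the 14 measured members of the 15 mature granule cell markers, 0 passed the threshold, and their median difference was -0.13 with mutant 27 and -0.06 without it, beside 0.00113 and -0.000992 over all genes. Of the 15 immature neuron markers, all 15 were measured, 0 passed, and the medians were 0.02 and -0.01. Prox1, the transcription factor that specifies granule cells, was 8.79 to 9.25 in extreme and 8.79 to 9.38 in moderate mice, a difference of -0.19 (SE 0.09) that became -0.14 without mutant 27. Of 14 measured proliferation genes, 0 passed, with medians of -0.01 and -0.01. The deposited ranges of extreme and moderate mice overlapped for every measured gene of these 3 lists, with and without mutant 27.

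Clock genes were closely bounded. All 21 circadian clock genes were measured, 0 passed the threshold and 0 had an unadjusted p below 0.05. All 21 intervals lay inside -0.5 to 0.5, the widest bounds being -0.44 and 0.42 with mutant 27, and -0.47 and 0.34 without it. Per1, a light- and activity-induced clock repressor, ranged from 6.95 to 7.59 in extreme and from 6.98 to 7.42 in moderate mice, and differed by -0.14 (SE 0.08), and by -0.12 without mutant 27. Per2, its partner, differed by -0.07 (SE 0.16) with that array and by 0.06 (SE 0.14) without it. Dbp, an output factor of the clock, differed by 0.05 (SE 0.12) and 0.04 (SE 0.13). For Per1, Per2 and Dbp the extreme and moderate readings overlapped. Cry2, a repressor of the same loop, had the smallest p of the list, with a difference of -0.12 (SE 0.06, unadjusted p = 0.0613) and of -0.12 without mutant 27.

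Immediate-early genes gave no call. All 21 were measured, 0 passed, and 1 was higher and 2 were lower at an unadjusted p below 0.05, where 3.08% and 3.35% of all genes were; 20 of the 21 intervals lay inside -0.5 to 0.5. Fos read 5.73 to 5.92 in extreme and 5.59 to 6.38 in moderate mice, with a difference of -0.06 (SE 0.15) that was 0.04 (SE 0.14) without mutant 27. Arc, whose product trims AMPA receptors from synapses, differed by -0.04 (SE 0.12), and by -0.08 without that array. Egr1, a zinc finger factor induced by activity, differed by 0.19 (SE 0.13) with mutant 27 and by 0.0018 (SE 0.05) without it. Fos ranged more widely in moderate than in extreme mice, its top readings being 6.38 in mutant 27 and 6.21 in mutant 26.

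The immediate-early genes with the smallest p were uneven across runs and arrays. Egr4, another zinc finger factor of the family, read 6.13, 5.99 and 5.95 in extreme mutants 4, 5 and 6 of run 1, and 5.64, 5.57 and 5.46 in mutants 25, 34 and 35. Moderate mice read 5.38 to 5.70. The 3 extreme mice of run 1 stood above all moderate mice and the other 3 lay within them. The difference of 0.24 (SE 0.10, unadjusted p = 0.0226) was 0.22 without mutant 27 and -0.07 within run 5. Junb, an AP-1 factor, differed by -0.29 (SE 0.10, unadjusted p = 0.00896), by -0.29 also without mutant 27, and its highest reading was 6.28 in moderate mutant 26, against 5.49 to 5.95 in extreme mice. Of 22 later activity-responsive genes, 22 were measured and 0 passed, with a median of 0.01. Bdnf, the neurotrophin of that set, differed by 0.0047 (SE 0.08) with mutant 27 and by -0.06 (SE 0.07) without it.

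**Figure D3:**
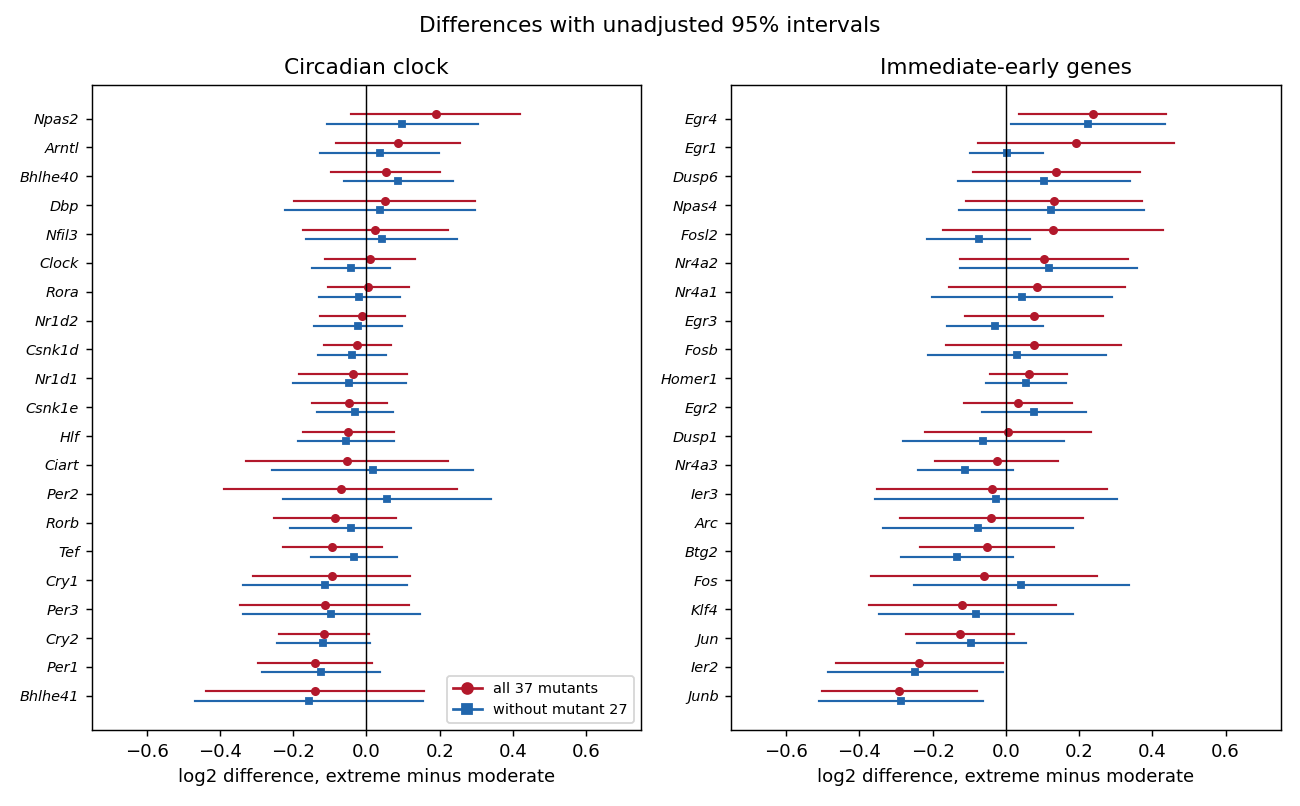
Extreme minus moderate log2 difference (x axis, linear) of the 21 clock genes and the 21 immediate-early genes (y axis); points are limma estimates and lines are unadjusted 95% intervals, with all 37 mutants (circles) and without mutant 27 (squares). All 21 clock intervals and 20 of 21 immediate-early intervals lie inside -0.5 to 0.5.

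Signalling, receptor and channel genes likewise gave no call. Of 17 measured CaMK and calcium signalling genes, 0 passed and the median was -0.01. Camk4, a nuclear relative of CaMKII that phosphorylates CREB, differed by 0.27 with mutant 27, which read 8.67 against 9.80 to 10.08 in the other moderate mice, and by 0.10 (SE 0.05) without it. Of 30 measured cAMP and CREB genes the median was 0.00039, and of 11 measured monoamine receptors 0.03, with 0 calls in both. Grm4, a presynaptic group III glutamate receptor, had the smallest p among the 19 glutamate receptor genes measured. It read 5.90, 6.23, 6.45, 6.28, 6.28 and 5.99 in the extreme mice and 6.06, 5.81, 5.93, 5.86, 6.03, 5.77 and 6.03 in the moderate mice. Of the extreme mice, 4 exceeded every moderate mouse, and mutants 4 and 35 lay among them. The Grm4 difference was 0.35 (SE 0.08, limma adjusted p = 0.535) with mutant 27 and 0.36 (adjusted p = 0.575) without it. GABA receptor genes (9 measured, median -0.01), voltage-gated channels (28 measured, median -0.00085) and synaptic vesicle genes (23 measured, median -0.01) held 0 calls.

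Among neuropeptides, 20 of 20 were measured, 0 passed, and 2 were higher at an unadjusted p below 0.05, where 3.08% of all genes were higher. Without mutant 27, 0 were higher and 1 was lower, where 2.9% and 2.69% of all genes were. Crh, the corticotropin-releasing hormone, read 5.34, 5.12, 4.96, 5.93, 6.42 and 6.12 in extreme mice, and 5.24, 5.78, 5.42, 5.43, 4.45, 5.55 and 5.44 in moderate mice. The 3 extreme mice outside run 1 were above all moderate mice, and the 3 in run 1 were not. The Crh difference was 0.50 (SE 0.22) with mutant 27 and 0.35 (SE 0.20) without it. Vip, a peptide of a class of interneurons, differed by 0.36 (SE 0.15), and by 0.27 without that array.

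Housekeeping and stress lists had medians close to 0. With mutant 27, medians were -0.02 for 14 glycolysis genes, -0.01 for 30 respiratory chain genes and -0.03 for 15 ribosomal protein genes. They were -0.0039 for 27 heat shock and unfolded protein response genes and 0.04 for 18 glucocorticoid-responsive genes. Without it they were -0.03, -0.02, -0.02, -0.0051 and 0.03, with 0 calls in each list both ways. At an unadjusted p below 0.05, 0 glucocorticoid-responsive genes were higher and 1 lower (Ddit4), beside 3.08% and 3.35% of all genes. Without mutant 27, 2 were higher (Zbtb16, 0.27, and Fkbp5, 0.14) and 1 lower (Ddit4), beside 2.9% and 2.69%. With that array, Zbtb16 was 0.14 and Fkbp5 0.09. Cholesterol synthesis genes, 15 of 18 measured, had a median of 0.0027 with mutant 27 and -0.08 without it. Without it all 15 estimates were below 0, beside a median of -0.000992 over all genes. Of the 15, 2 were lower at an unadjusted p below 0.05, where 2.69% of all genes were. The 15 estimates come from the same mice, so their signs are not separate observations. Fdps, which makes farnesyl pyrophosphate, was 7.79 in mutant 27 against 8.39 to 8.70 in the other moderate mice, and its difference was -0.06 with and -0.16 without that array. Ndufa2, Sdhc, Rpl4 and Rpl13a, as members of the large metabolic lists, all had differences between -0.15 and 0.

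The mural and meningeal list and the choroid plexus list had the medians farthest from 0 among the 33 lists. All 14 mural and meningeal markers were measured; 0 passed, 8 were lower and 0 higher at an unadjusted p below 0.05, where 3.35% of all genes were lower, and their median was -0.36. Estimates ran from -0.95 to 0.10, and 12 of the 14 were below 0, beside a median of 0.00113 over all genes. Without mutant 27, 6 were lower, where 2.69% of all genes were, and the median was -0.32. The list joins mural markers, such as Pdgfrb, Rgs5 and Acta2, with meningeal ones. The members named below are all meningeal, and the mural members were not summarised apart. Lum, a collagen-binding proteoglycan of meningeal fibroblasts, read 4.57, 4.51, 4.40, 4.43, 4.71 and 4.56 in extreme mice. Moderate mutants 10, 16, 17, 26, 27, 30 and 37 read 5.46, 4.43, 5.48, 4.53, 6.08, 4.84 and 5.61. All extreme mice lay in a narrow low band that 2 moderate mice shared. The band was not particular to them, as intermediate mice read 4.24 to 5.20 and low-activity mutants 4.49 to 6.15. The Lum difference was -0.95 (SE 0.24, adjusted p = 0.535 in limma) and -0.76 (adjusted p = 0.835) without mutant 27. Col3a1, a fibrillar collagen, differed by -0.70, Dcn, a second small proteoglycan, by -0.84, and Ptgds, the prostaglandin D synthase of meninges and choroid plexus, by -0.87. Without mutant 27 these values were -0.63, -0.70 and -0.73. The size depended on the block: with no block and all mutants, Lum differed by -0.67 and Col3a1 by -0.27. The mean level of the whole list per array ran from 6.30 to 6.78 in extreme mice and from 6.30 to 7.01 in moderate mice, so the groups overlapped. Its median was 6.48 in extreme, 6.73 in moderate, 6.44 in intermediate and 6.49 in low-activity mice. In run 1, which helps set the run term of extreme mutants 4, 5 and 6, low-activity mutants 1, 2 and 3 stood at 6.99, 7.53 and 6.75.

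Choroid plexus markers were far higher in 1 moderate mouse than in the others. Ttr, the thyroxine carrier made by choroid plexus, read 7.43, 7.15, 7.50, 7.79, 7.79 and 7.31 in extreme mice. It read 13.98 in moderate mutant 10, and 9.35, 8.68, 6.01, 9.90, 8.50 and 9.87 in mutants 16, 17, 26, 27, 30 and 37. Moderate mice lay above every extreme mouse except mutant 26, which lay below them all. The Ttr difference was -2.52 (SE 1.05, adjusted p = 0.764 in limma), -2.28 without mutant 27 and -1.80 without mutant 10. Of 11 measured choroid plexus markers of 12, 0 passed. Their median was -0.43, and it was -0.49 without mutant 27 and -0.12 without mutant 10. At an unadjusted p below 0.05, 1 was lower and 1 higher (Cldn2, a tight junction claudin, 0.35). Among all genes 3.35% were lower and 3.08% higher. Without mutant 27 it was again 1 and 1, where 2.69% of all genes were lower and 2.9% higher. The list's mean level was 7.02 in mutant 10, 3.69 to 4.01 in extreme and 3.61 to 4.35 in the other moderate mice. Outside the comparison, low-activity mutants 2 and 19 also read high for Ttr, at 12.95 and 13.23, with list means of 5.17 and 5.33.

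**Figure D4:**
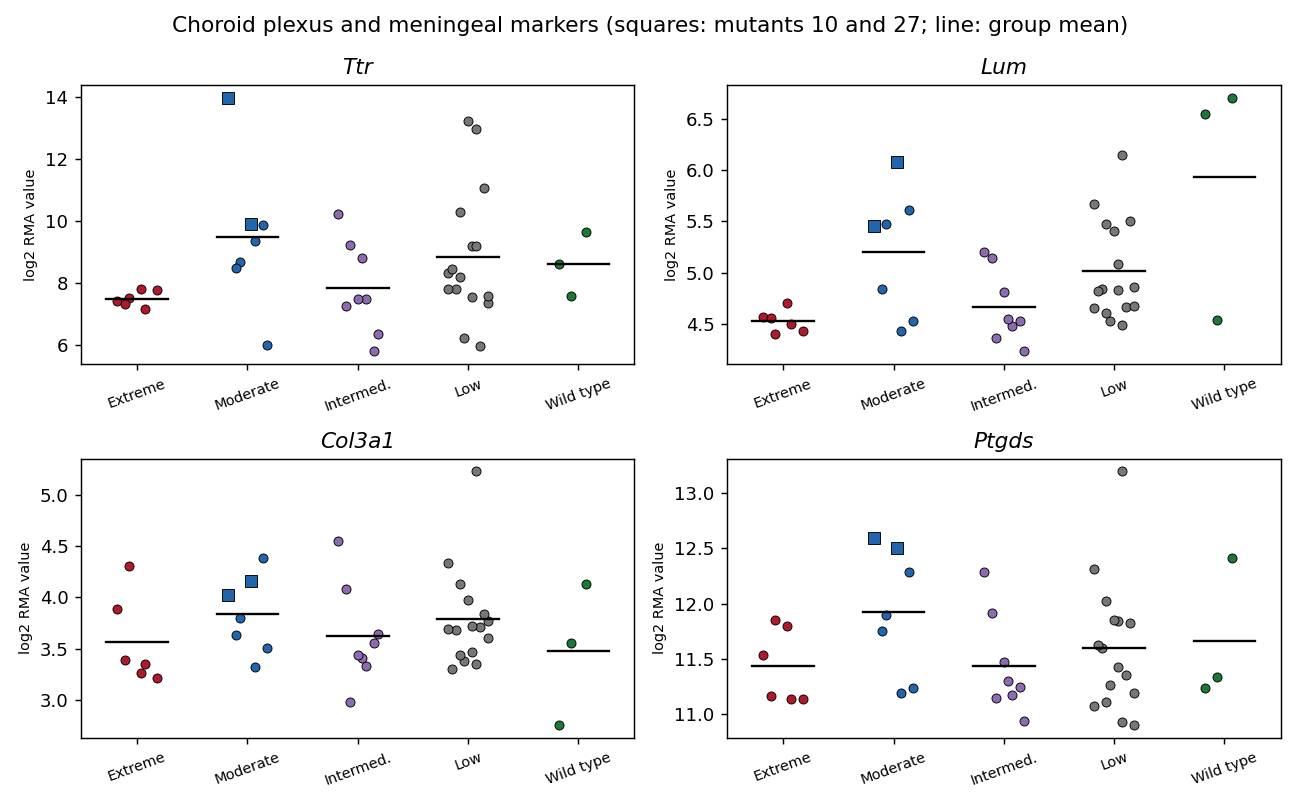
Deposited log2 RMA values (y axis, linear) of Ttr, Lum, Col3a1 and Ptgds in 40 arrays by activity group (x axis); each point is 1 array, squares are mutants 10 and 27, and lines are group means. Extreme mice lie between 7.15 and 7.79 for Ttr and between 4.40 and 4.71 for Lum, and mutant 10 reads 13.98 for Ttr.

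An absolute difference above 1 was found for 5 genes with mutant 27 (Ttr, Ogn, Fmod, Tdo2 and Pcolce, all lower in extreme mice) and for 3 without it (Ttr, Fmod and Kcnj13); Ogn, Fmod, Pcolce and Kcnj13 were picked out after their values were seen. Ogn, a proteoglycan of connective tissue, read 2.92 to 3.83 in extreme mice, and 7.09 in mutant 27 and 5.54 in mutant 10. Fmod, a fibril-associated proteoglycan, read 4.57 to 5.51 in extreme and 4.59 to 6.68 in moderate mice. Pcolce, an enhancer of procollagen processing, was highest in mutant 10 at 7.08. Each of these genes had overlapping groups and an adjusted p of 0.654 or more in limma. The part of meningeal and choroid plexus tissue in the values of other genes was not tested.

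Glial and vascular lists gave no call. Of 14 astrocyte markers 0 passed, the median was -0.08, and 2 were lower at an unadjusted p below 0.05, where 3.35% of all genes were: Aqp4, the water channel of end feet, at -0.22 (SE 0.07), and Gja1, a gap junction connexin, at -0.14 (SE 0.05). Without mutant 27 these were -0.20 and -0.13. S100b, a calcium-binding protein of astrocytes, had the other sign, with 9.76 to 9.91 in extreme and 9.63 to 9.74 in moderate mice and a difference of 0.10 (SE 0.06). Of 15 microglia markers 0 passed, the median was -0.07, and 2 were lower at an unadjusted p below 0.05, Aif1 (-0.21) and Tmem119 (-0.20), beside 3.35% of all genes. Without mutant 27 only Aif1 was (-0.22), and with no block Tmem119 was 0.02. Oligodendrocyte markers (13 measured, median 0.02), oligodendrocyte precursor markers (9, -0.03) and endothelial markers (12, -0.04) held 0 calls. Interneuron markers (14, median 0.02), mossy cell and hilar markers (12, -0.03), thalamus and habenula markers (13, -0.0084), striatum and cortex markers (10, -0.08) and blood markers (5, -0.0018) also held 0 calls. The 17 measured CA pyramidal neuron markers had a median of 0.15, 0 calls and 0 genes at an unadjusted p below 0.05. Over all 33 lists, 518 different genes were measured and 0 passed.

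Among genes above the median level, the lower genes with the smallest p were led by Igfbp5, a secreted binding protein of insulin-like growth factors. Extreme mutants 4, 5 and 6 of run 1 read 10.54, 10.62 and 10.67, and mutants 25, 34 and 35 read 10.22, 10.08 and 10.18. The moderate mice read 10.38, 10.46, 10.54, 10.56, 10.66, 10.45 and 10.34. The deposited values overlapped, and run 1 was high in its low-activity mutants too, at 10.80 to 10.89. After the run term was subtracted, extreme mice lay at 10.14 to 10.29 and moderate mice at 10.42 to 10.73. That run term comes from the same fit as the group difference, so the separation restates the fit and is no further support. The Igfbp5 difference was -0.35 (SE 0.07, unadjusted p = 1.67e-05, adjusted p = 0.277 in limma), -0.32 (adjusted p = 0.571) without mutant 27, and -0.10 with no block. It was -0.40 within run 4 and -0.27 within run 5.

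Vcam1 read 6.68, 6.97, 7.08, 6.85, 6.96 and 6.97 in extreme mice and 7.41, 6.88, 7.18, 7.21, 7.29, 7.27 and 7.48 in moderate mice. Only moderate mutant 16 lay within the extreme range. The Vcam1 difference was -0.35 (SE 0.08, adjusted p = 0.535 in limma), and -0.33 both with no block and without mutant 27. Map2k5, the kinase upstream of ERK5, was the 1 named gene in its direction whose groups did not touch, with 7.46 to 7.67 in extreme and 7.73 to 8.14 in moderate mice. Its difference was -0.20 (SE 0.05), -0.15 without mutant 27, and 0.0032 when the median of its 4 probe sets was taken. Igfbp2, a second binding protein of that family, differed by -0.64 (SE 0.17), Serping1, the complement C1 inhibitor, by -0.67 (SE 0.19) and Serpinf1, a secreted serpin, by -0.35 (SE 0.09). Smpd2, Padi2, Erlec1 and H1f10 completed the 10, with differences of -0.23, -0.28, -0.15 and -0.22. Without mutant 27, Igfbp2 was -0.56, Serping1 -0.57 and Serpinf1 -0.33. With no block, Igfbp2 was -0.18, Serping1 -0.40, Serpinf1 -0.10, Padi2 -0.07, Smpd2 -0.14 and H1f10 0.05. All 10 genes had an adjusted p of at least 0.277.

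Among genes above the median level, the 10 higher genes with the smallest p had differences from 0.15 to 0.25. Tmc8, a membrane protein of the TMC family, read 6.91, 6.53, 6.62, 6.37, 6.28 and 6.27 in extreme mice and 6.62, 6.22, 6.19, 6.04, 6.30, 5.90 and 6.11 in moderate mice. The moderate mutants 10 and 27 reached into the extreme range and the other 5 lay below it. The Tmc8 difference was 0.25 (SE 0.06, adjusted p = 0.535 in limma) and 0.27 without mutant 27. Pxmp2, a channel of the peroxisomal membrane, differed by 0.20 (SE 0.06), Crat, the carnitine acetyltransferase, by 0.20 (SE 0.07), and Nefm, a neurofilament subunit, by 0.15 (SE 0.05). Hnrnpd, Rpap3, Tmem169, Irf2bpl, Pstk and Bend3 lay between 0.15 and 0.22. With no block, Hnrnpd was -0.04, Rpap3 0.05, Tmem169 0.11, Nefm 0.08 and Bend3 0.04. Without mutant 27, Skil, a repressor of SMAD signalling (0.28), Ces5a, Fat3, Dusp14, Ybx3 and Csnk1a1 entered the first 10 higher genes, and Fads2, a fatty acid desaturase (-0.20), Dpy19l1 and Trappc5 the first 10 lower genes.

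Deposited values of the 6 extreme mice and the 7 moderate mice did not overlap for 20 genes (0.11%), 11 higher (0.0605%) and 9 lower (0.0495%) in extreme mice. Without mutant 27 there were 39 such genes (0.214%; 0.0879% higher and 0.126% lower), which included all 20. Of the 20 genes, 9 had an unadjusted p below 0.05 in the blocked limma model, where 6.43% of all genes did. The 20 genes were picked from the same values that the model used, so this count is no further support. The 13 mice can be regrouped in 1716 ways, and whether the true grouping separated more genes than other regroupings was not tested. The 9 lower genes were Add3, Bmper, Cav2, Ctdspl, Khdrbs2, Map2k5, Pdlim5, Rbm41 and Spata7, named here after their values were seen. Cav2, a caveolin of membrane invaginations, read 8.19, 8.19, 8.50, 8.68, 8.60 and 8.73 in extreme mice and 8.74 to 8.86 in moderate mice, the 3 extreme mice of run 1 being the lowest. Add3, a cytoskeletal adducin, read 9.52 to 9.65 in extreme and 9.67 to 9.86 in moderate mice, with a difference of -0.14 (SE 0.04).

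Each group was also set beside the 16 low-activity mutants. Extreme minus low gave 36 genes past the threshold (0.198%; 17 higher and 19 lower) with mutant 27 in the fit, and 72 (0.396%; 34 and 38) without it. Moderate minus low gave 0 genes with it, with 1001 genes (5.5%) at an unadjusted p below 0.05, and 0 without it, with 673 (3.7%). Intermediate minus low gave 0 genes, with 1118 (6.14%) at an unadjusted p below 0.05, and 0 without mutant 27, with 1299 (7.14%). These comparisons share the low-activity mice, and the test of their difference is the extreme minus moderate test, with 0 genes. Without run 1, which leaves 3 extreme mice, the extreme minus low count was 0 with mutant 27 and 10 without it. Leaving out single mice moved it to 17 without mutant 34, 19 without mutant 4 and 23 without either of the low-activity mutants 2 and 3.

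In the fit without mutant 27, 2 of the 15 measured cholesterol synthesis genes were lower in extreme than in low-activity mice past the threshold, which 0.396% of all genes passed; with that array in the fit 1 was, Fdps. Fdps fell by 0.34 (adjusted p = 0.000599 in limma) and Fdft1, the squalene synthase, by 0.25, while moderate minus low values were -0.18 and -0.14. Id4 and Id3, inhibitors of basic helix-loop-helix factors, fell by 0.37 and 0.26, with moderate values of -0.18 and -0.10. Vcam1 fell by 0.35 and its moderate value was -0.01. Higher genes included Crh at 0.76 (moderate 0.41), Grm4 at 0.40 (moderate 0.04), Camk4 at 0.23 (moderate 0.14), Skil at 0.38 (moderate 0.10) and Fam107a, a stress-responsive actin-binding protein, at 0.31 (moderate 0.16). Arntl, the clock activator BMAL1, rose by 0.32, beside 0.28 in moderate and 0.27 in intermediate mice; its extreme minus moderate difference was 0.04 (95% interval -0.13 to 0.20).

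For 0 of the 72 genes did the direct extreme minus moderate difference pass the threshold. A slope on log2 activity across the 21 mutants above 40000 also gave 0 genes, with 732 at an unadjusted p below 0.05 in limma.

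**Figure D5:**
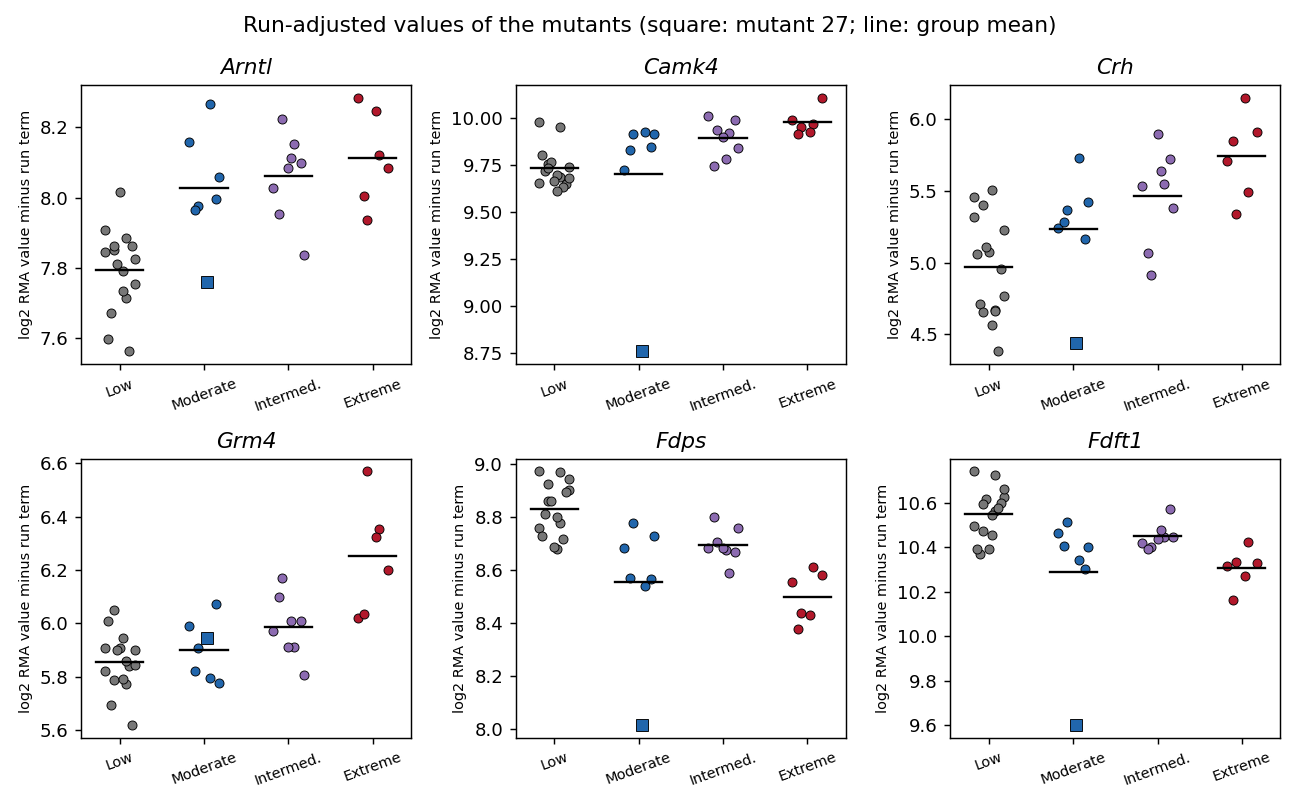
Log2 RMA values after subtracting each run's term (y axis, linear) of 6 genes in the 37 mutants by activity group (x axis); each point is 1 mouse, the square is mutant 27 and lines are group means. Extreme mice lie at 8.38 to 8.61 for Fdps against 8.68 to 8.97 in low-activity mice, and moderate mice overlap the extreme mice for every gene drawn. The run terms come from the same fit as the group differences.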

How the data were processed

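The deposited values are log2 expression values, made by the authors with RMA (background correction, normalisation and probe summary) per the submitters' processing notes; its version is not recorded in them, and no genome build is given in the sources used here. Of 45101 probe sets, 34958 were paired with 1 gene by the platform annotation, and the one with the highest mean over all 40 arrays stood for each of 18194 genes. Gene symbols came from that annotation, updated by gene ID for 34754 probe sets. No column belonged to another series (0).

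The comparison was fitted in limma 3.58.1 (R 4.3.3) as group means of the 37 mutants with runs of 8 consecutive samples (5 levels) as a fixed block, 2-sided, with Benjamini-Hochberg adjustment over all genes, and refitted without mutant 27. The wild types were not in the fit. The runs are read from sample order, not from a label. The groups, lists and genes were chosen with earlier results of these data known. Named genes are Camk2a and 10 more of fixed interest, the 10 per direction in the upper part of the level range with the smallest p (with and without mutant 27; none passed the threshold), and 2 per list. Tdo2, S100b, Dcn, Ptgds, Arntl, Fdft1, Id3, Id4 and Fam107a are examples from outside this rule. Ranges are over mice. Depth has no meaning on arrays, so precision rests on the number of mice. Pairs of mutant arrays correlated at 0.984 to 0.998, and no 2 were alike within noise: the smallest SD of a difference was 0.154. The fit was tested on simulated data. Alternatives changed the block, the arrays, age as a covariate, the low-level filter, the probe set, the scaling and the variance model.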

Additional observations from a re-analysis of the deposited data

Results flagged for a closer look

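In each of the 2 groups, an array was picked out for a named gene when its gap to its nearest neighbour was above Dixon's 95% critical value for the group size. Chance picks out about 1 group in 20. Of the readings picked out among the 128 named genes, 27 came from the array labelled mutant 27 in the moderate group. Part of these genes were named for their p with or without that array, so this count cannot be read against the chance share. Over all genes, mutant 27 was picked out for 6.46%. Whether its label is right was not tested.

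For genes linked to granule cell maturity and signalling, mutant 27 read 12.9 for Camk2a (12.09 to 12.31 in the other moderate mice), 9.145 for Egr1 (10.49 to 10.53), 11.6 for Calb1 (9.449 to 9.849) and 6.708 for Drd1 (8.609 to 8.979). It read 7.103 for Penk (9.817 to 10.29), 9.558 for Bdnf (9.982 to 10.19), 8.667 for Camk4 (9.798 to 10.08) and 10.8 for Rfx3 (9.592 to 9.86). It read 6.18 for Nptx2 (7.843 to 8.577) and 7.587 for Plk5 (8.947 to 9.377).

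For peptides, receptors and channels, the same array read 4.452 for Crh (5.241 to 5.783), 6.48 for Vip (7.017 to 7.238), 6.149 for Pdyn (6.765 to 7.229) and 7.986 for Gabrd (8.779 to 8.975). It read 8.42 for Kcnk2 (7.384 to 7.803), 5.462 for Sv2c (6.202 to 6.631), 6.295 for Cacng5 (4.725 to 5.065) and 5.29 for Glipr1 (5.958 to 6.221).

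For metabolism, growth and other genes, it read 7.79 for Fdps (8.391 to 8.699), 8.356 for Idi1 (8.981 to 9.382), 11.11 for Ldhb (11.42 to 11.59) and 7.391 for Ccnd1 (8.57 to 8.733). It read 11.14 for Stmn1 (10.87 to 10.97), 10.05 for Hnrnpd (10.3 to 10.48), 8.138 for Map2k5 (7.73 to 7.862), 10.44 for Skil (9.809 to 10) and 8.659 for Dpy19l1 (9.268 to 9.554).

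The remaining readings came from other mice. Moderate mutant 26 read 7.994 for Dhcr7 (7.596 to 7.743 in the other moderate mice) and 10.78 for Prkacb (10.62 to 10.65). Extreme mutant 4 read 10.35 for Bdnf (10.06 to 10.13 in the other extreme mice), and extreme mutant 6 read 11.32 for Ldhb (11.42 to 11.46).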

How the results depend on the processing

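No paired analysis was possible because extreme and moderate mutants share no replicate number, and the numbers that mutants 1 to 3 share with wild types 1 to 3 enter no comparison. The extreme minus moderate count was 0 under all 20 other settings, of which those without run 1, those on runs 4 and 5 without mutant 27 and those on all probe sets were chosen after seeing the data. It was 0 in 36 of 37 fits that left out 1 mutant and 1 (Vcam1) without mutant 16, so its range was 0 to 1. Genes at an unadjusted p below 0.05 numbered 1169 in limma, 2583 with no block, 586 with the 13 arrays alone and the block, and 2646 of all probe sets.

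Extreme minus low gave 72 genes without mutant 27, 5 on runs 4 and 5, 27 on those runs without mutant 27, 0 within run 4, 1 within run 5, 0 without run 1, 10 without run 1 and mutant 27, and 17 to 72 leaving out 1 mutant. Extreme minus intermediate gave 0 genes, 1 with no block, 1 among the genes above the median level, and 0 to 2 leaving out 1 mutant (1 without mutant 12, 2 without mutant 25 or 35). Intermediate minus low gave 0 to 1, with 1 without mutant 12.

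Of 2402 values of the 128 named genes under the other settings, 2148 kept their sign, 207 changed it with neither side at an unadjusted p below 0.05, and 47 changed it with 1 side below; 0 passed the threshold. Of 4736 values with 1 mutant left out, 39 changed sign and 1 passed (Vcam1). Leaving out 1 mutant took Drd1 from -0.1702 (without mutant 27) to 0.2232 and Nptx2 from -0.1776 (without mutant 27) to 0.2752. With no block, for all mutants and for the 13 arrays alike, Hnrnpd was -0.03974, H1f10 0.04522, Fat3 -0.02783, Ybx3 -0.05018, Csnk1a1 -0.05663 and Tmem119 0.02165. With 13 arrays and the block, Egr4 was -0.004101 and Dlx1 -0.1555. With no block and 12 arrays without mutant 27, Hnrnpd was -0.08536, Rpap3 -0.02095, H1f10 0.03098, Ybx3 -0.0001988, Csnk1a1 -0.04229, Camk4 -0.08683 and Tmem119 0.06767. On runs 4 and 5 without mutant 27, Dbp was -0.186, Egr4 -0.02404, Prox1 0.01829, Dlx1 -0.1646 and Plk5 -0.1936. Within run 4, Fat3 was -0.08484, Ybx3 -0.009384, Csnk1a1 -0.005375, Trappc5 0.1132, Grik2 0.09354 and Tek 0.1007. Within run 5, Egr4 was -0.07477, Prox1 0.03005, Crtc2 0.0576 and Tmem119 0.001304. With the median of a gene's probe sets, Hnrnpd was -0.0515, Irf2bpl -0.0008013, Crat -0.1547, Map2k5 0.003154, Ces5a -0.05281, Ybx3 -0.007511, Csnk1a1 -0.0511, Calcrl 0.2286 and Tcf7l2 0.02527. The cause of these changes was not tested.

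With 6 and 7 mice, and only 3 extreme and 4 moderate mice in runs that hold both groups, small differences could be missed. The unadjusted 95% interval reached 0.177 to each side of the estimate at the median. Values without the block mix the run with the group, since run 1 holds extreme mice only of the 2 groups.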
